A study of Homo sapiens with 15 samples.

Results

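Day 2 of definitive endoderm differentiation was compared with the undifferentiated state in H9 cells, a human embryonic stem cell line. Day 2 lies a day after the Wnt activator CHIR99021 was removed and before the endoderm factor FOXA2 is high. The members were all genes with adequate counts, chosen by a filter on low counts and not by their change: 17401 of 23346 gene symbols were tested. A gene with few or no counts on day 0 could pass that filter through libraries of other days. The comparison rests on 6 of the 15 bulk RNA-seq libraries of the series, which covers days 0 to 4 with 3 libraries a day, numbered replicates 1, 2 and 4. Day 0 cells were kept in E8 medium, which supports the undifferentiated state. Day 2 cells had been in Advanced RPMI medium with activin A and CHIR99021 for the first 24 hours and with activin A alone since then. All groups were the same H9 line with no genetic change named, so the results describe a single line. Day and medium cannot be told apart in a comparison with day 0. No label says that the replicates were separate cultures. The p-values therefore cover only the spread between libraries, which may be technical. That spread was estimated over all 15 libraries, so the libraries of days 1, 3 and 4 enter the p-values too.

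Definitive endoderm is the germ layer that forms the gut tube, liver and pancreas. In the embryo its cells leave the epiblast through the primitive streak under Nodal and Wnt signals, and in culture activin A stands in for Nodal while CHIR99021, an inhibitor of the kinase GSK3, turns on the Wnt pathway through beta-catenin. On the way, epithelial junctions loosen, the pluripotency network is shut down, and a wave of streak factors is followed by factors of the endoderm itself.

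Values are CPM, counts scaled to a common library size per the TMM method, given for replicates 1, 2 and 4 in that order. They are not divided by gene length, so levels are compared between days and not between genes. Log2 fold changes are day 2 minus day 0, followed by ± an approximate standard error (SE), while ± after a mean level is the SD over 3 libraries. Adjusted p-values are from edgeR's quasi-likelihood test over all genes tested. A gene is said to have risen or fallen only where its adjusted p was under 0.05. Total counts of the 6 libraries ran from 70785986 to 115442078. The libraries of a day were not equally alike. On day 0 the correlation (log2 scale, across genes) was 0.9575 between replicates 1 and 2, 0.944 between 1 and 4 and 0.962 between 2 and 4. On day 2 replicate 4 stood apart, since its correlation with replicates 1 and 2 was 0.954 and 0.961, against 0.986 between those. Of 10530 genes with a day 2 mean of at least 5 CPM, day 2 replicate 4 was over 2-fold above both other libraries for 1146 and over 2-fold below both for 943. For day 2 replicate 1 these counts were 4 and 24. On day 0 the same counts, over 10456 genes, were 917 and 863 for replicate 4, 456 and 507 for replicate 1, and 50 and 423 for replicate 2. Ribosomal protein genes took 5.49% of the counts of day 2 replicate 4 against 2.24% and 2.29% in its fellows, and 7.39%, 2.15% and 4.76% on day 0. The part of these differences in the results was not tested. For many genes and lists whose calls turn on single libraries, results are given with and without them.

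By day 2, 2010 genes had risen and 1594 had fallen, which is 11.6% and 9.16% of the genes tested. The median log2 fold change was 2.32 among the risen, -2.10 among the fallen and -0.03 over all genes tested. Changes were large: 1168 genes rose and 842 fell by at least 4-fold, and 498 rose and 281 fell by at least 16-fold, while the smallest change called was 0.64 on the log2 scale. All 3 day 2 libraries lay above all 3 of day 0 for 3138 genes tested (18.0%) and below them for 2847 (16.4%). In each of the 6 fits that left out 1 library of day 0 or day 2, 1236 of the risen genes (7.10% of those tested) and 710 of the fallen (4.08%) were called again. The count of fallen genes was the less stable: it was 799 with day 2 replicate 2 left out and 1014 with day 2 replicate 1 left out, and 1056 with both replicate 4 libraries left out, where 1748 genes rose.

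The 4 genes that mark the comparison separated the days by wide margins. CER1, a secreted antagonist of Nodal, BMP and Wnt ligands made by anterior endoderm, stood at 13.3, 12.9 and 16.4 CPM on day 0 and at 4767, 5388 and 3458 on day 2 (log2 fold change 8.32 ± 0.87, adjusted p = 9.44e-06). EOMES, a T-box factor that the embryo needs to form endoderm, stood at 1.96, 1.93 and 2.47 CPM and then at 473, 472 and 548 (log2 fold change 7.87 ± 0.76, adjusted p = 4.57e-06). For both genes every day 2 library, replicate 4 included, was far above every day 0 library. SOX2, a core pluripotency factor, went the other way, from 313, 157 and 132 CPM to 5.41, 5.65 and 4.25 (log2 fold change -5.30 ± 0.63, adjusted p = 2.86e-05). RTL1, a paternally expressed imprinted gene derived from a retrotransposon and best known from placenta, was low on day 0 at 0.260, 0.0794 and 0.152 CPM and reached 16.2, 21.1 and 15.1 on day 2 (log2 fold change 6.74 ± 0.59, adjusted p = 1.79e-06). The floor used here, 3 counts in a library, was 0.0313 CPM on average over the day 0 libraries. RTL1 has an antisense partner, and whether the counting used strand is not given, so reads of the partner cannot be told apart. Neither day overlapped the other for any of the 4 genes. In these bulk samples fewer cells of a type and less RNA per cell cannot be told apart.

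The 250 bases before the start of these genes are shown so that the sequence next to each start can be read beside its level, with MIXL1 added as a streak gene that also rose. They are from RefSeq on GRCh38.p14, which is not the build of the counts, and are written 5′ to 3′ on the gene's strand: CER1 at chr9:14722734-14722983 (minus strand), EOMES at chr3:27722324-27722573 (minus), SOX2 at chr3:181711675-181711924 (plus), RTL1 at chr14:100903723-100903972 (minus) and MIXL1 at chr1:226223414-226223663 (plus). Capitals mark matches, on either strand, to 9 short motifs.
CER1: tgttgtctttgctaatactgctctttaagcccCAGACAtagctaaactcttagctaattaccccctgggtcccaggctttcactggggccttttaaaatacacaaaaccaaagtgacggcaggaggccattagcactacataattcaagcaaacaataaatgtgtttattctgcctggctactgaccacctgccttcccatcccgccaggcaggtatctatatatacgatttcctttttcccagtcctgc
EOMES: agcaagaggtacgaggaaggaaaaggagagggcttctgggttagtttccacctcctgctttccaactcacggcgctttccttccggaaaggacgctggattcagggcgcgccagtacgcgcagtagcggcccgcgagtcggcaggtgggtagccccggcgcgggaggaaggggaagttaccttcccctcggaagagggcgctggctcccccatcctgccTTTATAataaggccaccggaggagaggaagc
SOX2: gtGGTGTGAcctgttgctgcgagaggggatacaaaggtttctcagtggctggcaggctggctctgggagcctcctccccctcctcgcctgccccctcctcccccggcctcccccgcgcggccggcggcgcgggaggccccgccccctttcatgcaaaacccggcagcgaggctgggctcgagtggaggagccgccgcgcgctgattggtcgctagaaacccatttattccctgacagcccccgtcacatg
RTL1: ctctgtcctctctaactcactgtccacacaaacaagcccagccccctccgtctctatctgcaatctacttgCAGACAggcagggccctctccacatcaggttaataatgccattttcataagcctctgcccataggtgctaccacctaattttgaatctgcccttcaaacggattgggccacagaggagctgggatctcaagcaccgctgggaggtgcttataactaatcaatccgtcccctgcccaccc
MIXL1: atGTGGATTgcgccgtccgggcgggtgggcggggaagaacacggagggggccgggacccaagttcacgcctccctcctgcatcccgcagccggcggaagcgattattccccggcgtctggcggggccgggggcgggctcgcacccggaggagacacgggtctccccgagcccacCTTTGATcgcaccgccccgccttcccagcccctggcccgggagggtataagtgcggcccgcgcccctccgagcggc
The letters searched were AATCCAC for FOXH1, CAGACA for SMAD proteins, GGTGTGA for T-box factors, AGATAAG for GATA factors, ACAATGG for SOX factors, TGCAAAT for the octamer, CTTTGAT for TCF factors, TATAAA for the core promoter box of that name and GGATTA for OTX factors. CER1 held the SMAD letters at position -218 from the start, and RTL1 held them at -179, as did 13.6% of 27305 promoters in the same window. EOMES held TATAAA on the opposite strand, found in 11.1% of promoters. SOX2 held the T-box letters, found in 2.72%. MIXL1 held both the FOXH1 letters, on the opposite strand and in 1.97% of promoters, and the TCF letters, in 2.28%. No matches overlapped each other, and such matches are a description of letters only. Only 11590 of the 17401 tested genes were matched to a promoter entry, so no share over risen or fallen genes is given.

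Of 23 definitive endoderm genes tested, 17 rose, each also in all fits that left out 1 library, and the other 6 did not pass. The list's median log2 fold change was 5.32, beside -0.03 over all genes. CER1 and EOMES count among them, and transcription factors made up most of the rest. GATA6, a zinc finger factor at the head of the endoderm program, went from 2.51, 2.36 and 4.62 CPM to 612, 634 and 659.5 (log2 fold change 7.65 ± 0.75, adjusted p = 5e-06). Its relative GATA4 went from 1.47, 1.25 and 2.45 to 159, 139.9 and 259 (log2 fold change 6.75 ± 0.49, adjusted p = 3.45e-07). On day 2 the replicates were close for GATA6, whereas GATA4 was highest in replicate 4 on both days. SOX17, the SOX factor that defines the lineage, went from 0.828, 0.695 and 1.01 CPM to 94.3, 67.2 and 87.1 (log2 fold change 6.61 ± 0.58, adjusted p = 1.82e-06). LHX1, a LIM homeobox factor of the streak and anterior endoderm, went from 3.05, 2.82 and 5.77 CPM to 816, 605 and 1143 (log2 fold change 7.78 ± 0.81, adjusted p = 8.94e-06). A day earlier the mean of SOX17 was 0.656 ± 0.369 CPM (SD, n = 3), that of GATA6 232 ± 14.9 and that of LHX1 67.6 ± 13.7. All 17 risen members had a higher mean on day 2 than on day 1.

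FOXA2 itself did not pass. It stood at 14.9, 9.14 and 7.52 CPM on day 0 and 25.9, 24.3 and 8.82 on day 2 (log2 fold change 0.91 ± 0.53, adjusted p = 0.251), with the day 2 replicate 4 library inside the day 0 range and the other pair above it. Its means were 1.97 ± 0.499 CPM on day 1, 139 ± 104 on day 3 and 157 ± 61.4 on day 4. Several endoderm genes were unevenly expressed among the day 2 libraries. HHEX, a homeobox gene of anterior endoderm and liver bud, rose from 0.852, 0.775 and 0.400 CPM to 78.5, 42.5 and 5.70 (log2 fold change 5.97 ± 1.12, adjusted p = 0.00142). CXCR4, the chemokine receptor used to sort endoderm cells, rose from 1.59, 1.05 and 1.75 to 34.4, 32.4 and 11.3 CPM (log2 fold change 4.15 ± 0.68, adjusted p = 0.000474). PRDM1, a zinc finger repressor, went from 1.73, 0.914 and 1.03 to 70.0, 120.1 and 26.4 (log2 fold change 5.88 ± 0.57, adjusted p = 4.64e-06). In each of HHEX, CXCR4, PRDM1 and FOXA2, replicate 4 was over 2-fold below both other day 2 libraries, yet for the first 3 it stayed above every day 0 library.

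**Figure D1:**
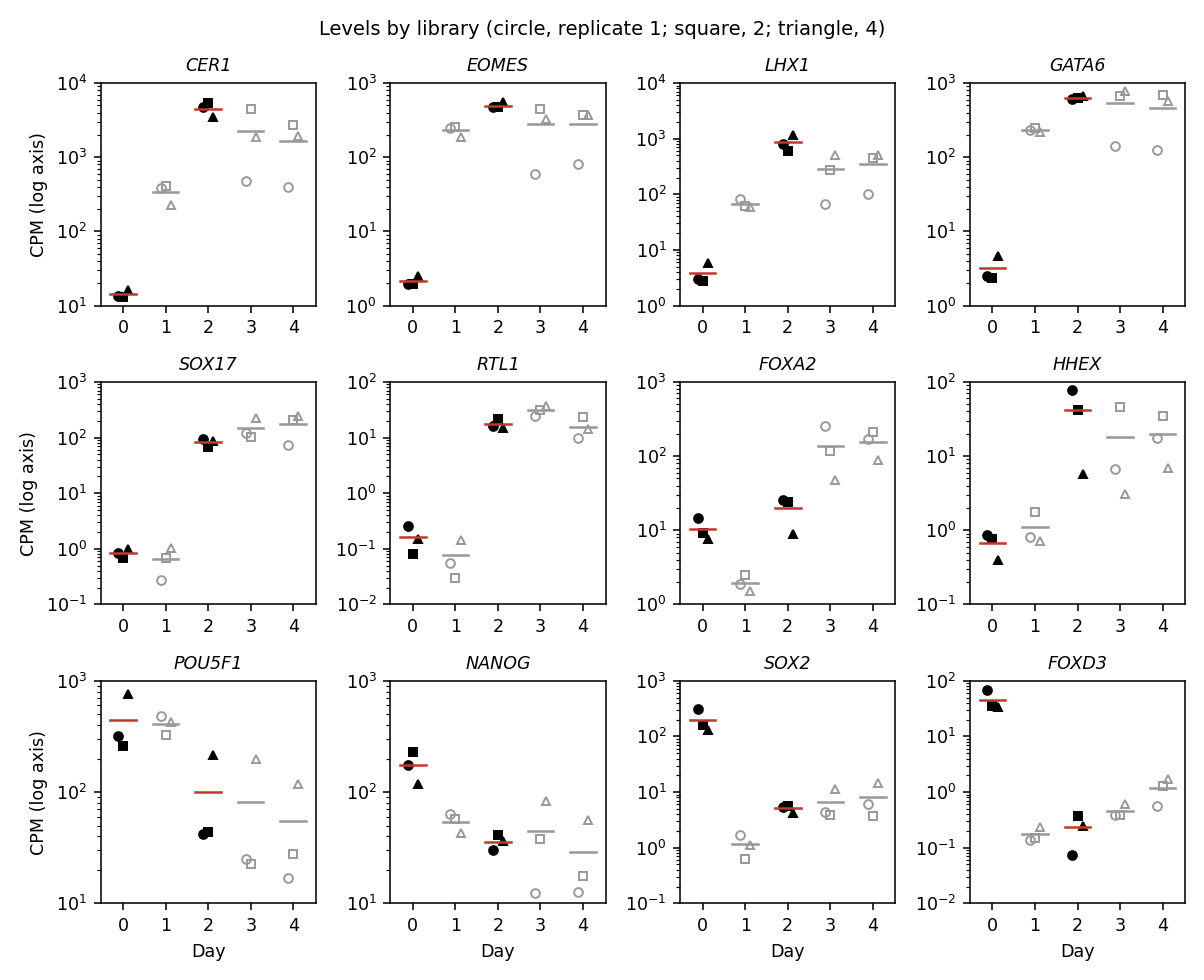
CPM (log axis) of 12 genes in each library against day of differentiation; circles, squares and triangles are replicates 1, 2 and 4 and bars are means of 3 libraries. Filled symbols with red bars are the days compared here, open grey symbols the other days. The day 2 libraries of CER1, EOMES, LHX1, GATA6, SOX17 and RTL1 all sit above those of day 0, SOX2 and FOXD3 sit below, and for FOXA2 and HHEX the replicate 4 triangle is the lowest of day 2.

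Most streak genes were still above day 0 on day 2, though some had passed their peak. Of 18 tested, 13 rose and the other 5 did not pass, with a median log2 fold change of 5.32, and 11 of the risen held in every fit that left out 1 library. Of the 13 risen, 7 had a higher mean on day 1 than on day 2, and the list summed to 23.1 to 54.4 CPM in the day 0 libraries, 2992 to 3621 on day 1 and 1536 to 2796 on day 2. MIXL1, a homeobox gene switched on by Nodal in the streak, stood at 2.30, 1.93 and 2.68 CPM on day 0 and 265, 219 and 513 on day 2 (log2 fold change 7.17 ± 1.15, adjusted p = 0.0004), after 1197 ± 34.2 on day 1. T, the brachyury gene of streak and mesoderm, was at 0.497, 0.636 and 0.381 CPM on day 0 and 4.23, 3.51 and 11.1 on day 2 (log2 fold change 3.63 ± 0.60, adjusted p = 0.000491), after 456 ± 89.4 on day 1. By their means both genes were lower than on day 1, but each day 2 library lay above all day 0 libraries. GSC, the homeobox gene of the organiser, rose from 0.0473, 0.0993 and 0.552 CPM to 18.1, 24.1 and 121 (log2 fold change 7.83 ± 1.68, adjusted p = 0.00371), with replicate 4 the highest library on both days. MESP1, a driver of early mesoderm, rose from 0.0237, 0.0199 and 0.247 CPM to 2.03, 2.69 and 38.4 (log2 fold change 7.16 ± 1.43, adjusted p = 0.00226), and replicate 4 was again the highest library on both days.

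Genes of the organiser and of anterior identity also rose, 9 of 14 tested, all held in each fit without 1 library (median log2 fold change 3.14). Of these, CER1, GSC, LHX1, HHEX, FZD8 and OTX2 are also in the definitive endoderm list. OTX2, a homeobox gene of anterior tissue that stem cells also express, went from 106, 124 and 66.0 CPM to 399.5, 430.1 and 338 (log2 fold change 1.98 ± 0.45, adjusted p = 0.00557). FST, which encodes the activin-binding protein follistatin, went from 23.7, 13.98 and 13.0 CPM to 155, 191 and 209 (log2 fold change 3.46 ± 0.53, adjusted p = 0.00027). NOG, encoding the BMP antagonist noggin, went from 0.0237, 0.0794 and 0.304 CPM to 1.71, 4.92 and 6.17 (log2 fold change 4.93 ± 0.83, adjusted p = 0.000619). All 3 kept the days apart.

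Pluripotency genes moved mostly down, though unevenly. Of 26 tested, 19 fell, 13 of them in every fit without 1 library, with a median log2 fold change of -2.17. The list summed to 9907 to 13364 CPM in the day 0 libraries and 3771 to 4111 on day 2. FOXD3, a forkhead repressor expressed in stem and neural crest cells, fell furthest, from 68.3, 34.7 and 34.5 CPM to 0.0736, 0.377 and 0.247 (log2 fold change -7.64 ± 0.67, adjusted p = 1.82e-06). USP44, a deubiquitinase gene high in stem cells, fell from 508, 545 and 237 CPM to 27.1, 24.9 and 21.9 (log2 fold change -4.13 ± 0.47, adjusted p = 1.97e-05). PRDM14, a repressor of lineage genes, went from 37.3, 56.6 and 75.3 to 3.33, 3.16 and 7.48 (log2 fold change -3.60 ± 0.65, adjusted p = 0.00102). FGF2, whose product sustains stem cells in culture, fell from 326, 283 and 106 CPM to 27.7, 21.5 and 19.3 (log2 fold change -3.38 ± 0.57, adjusted p = 0.000593).

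NANOG and POU5F1, which with SOX2 form the core of the pluripotency network, were called in some fits and not in others. NANOG fell from 174, 229 and 118 CPM to 30.0, 40.8 and 36.6 (log2 fold change -2.28 ± 0.60, adjusted p = 0.0143). The days did not overlap for NANOG, but its adjusted p was 0.0519 with day 0 replicate 2 left out. It was 0.0637 with day 2 replicate 1 left out and 0.0502 with day 2 replicate 2 left out. With only days 0 and 2 in the fit it was 0.00203, in a range of 0.00113 to 0.0637 over all alternatives. The log2 fold change of NANOG stayed between -2.46 and -2.02 throughout. POU5F1, the OCT4 gene, was at 319, 262 and 765 CPM on day 0 and 41.7, 43.4 and 215 on day 2 (log2 fold change -2.16 ± 0.90, adjusted p = 0.102) and did not pass, although no day 2 library reached the day 0 range. Replicate 4 was the highest POU5F1 library on both days. The adjusted p of POU5F1 was 0.0351 with day 2 replicate 4 left out and 0.00109 with the replicate number as a block, in a range of 0.00109 to 0.297. Both genes have near-identical pseudogenes that could share reads. Among 10 genes of the naive state, 3 rose and 3 fell. KLF5 (log2 fold change 2.99 ± 0.33), TBX3 (log2 fold change 5.34 ± 0.85) and NR0B1 (log2 fold change 5.61 ± 1.08) rose in every fit without 1 library, while TFCP2L1, KLF4 and NR5A2, the last named after its values were seen, fell, a count of 1 with day 2 replicate 2 left out. KLF5 and TBX3 are expressed in endoderm and mesoderm lineages too. The list had a median of -1.52 and a mean of -0.12.

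The ligands, receptors and processing enzymes of the Nodal pathway had a median log2 fold change of 0.07 over 12 genes, 4 of which rose and 1 fell. NODAL went from 2.89, 2.05 and 3.77 CPM to 51.6, 65.2 and 44.7 (log2 fold change 4.21 ± 1.21, adjusted p = 0.0213), with no overlap, and was at 412 ± 114 on day 1. Its adjusted p was 0.0825 with day 0 replicate 1 left out and 0.0759 with day 0 replicate 2 left out, in a range of 1.59e-05 to 0.0825. INHBA, which encodes the activin A subunit itself, was low on day 0 at 1.18, 1.59 and 1.37 CPM and fell to 0.0368, 0 and 0.0274 (adjusted p = 0.00351), which is 6 counts in all on day 2. PCSK6, a proprotein convertase that cleaves Nodal, rose from 1.70, 3.10 and 3.96 CPM to 11.4, 11.2 and 9.56 (log2 fold change 1.88 ± 0.34, adjusted p = 0.00113). PCSK6 was the member that rose in each fit without 1 library. The list's risen count was 2 with day 0 replicate 2 left out and 2 with day 2 replicate 4 left out, and its fallen count was 2 with day 2 replicate 4 left out. The day 2 levels of NODAL were similar in the 3 libraries. The mean of the list was -0.04.

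Of 12 inhibitors of the pathway, 6 rose and the other 6 did not pass, and the list median was 2.05. LEFTY2, a secreted inhibitor induced by Nodal, rose from 0.426, 0.397 and 5.59 CPM to 68.6, 140.2 and 67.5 (log2 fold change 5.42 ± 1.34, adjusted p = 0.00942). Day 0 replicate 4 was the high library of that day for LEFTY2. The same library was high for LEFTY1, which was at 0.757, 0.377 and 4.85 CPM on day 0 and 82.9, 115 and 41.8 on day 2 (log2 fold change 5.32 ± 1.85, adjusted p = 0.0528) and did not pass. The adjusted p of LEFTY1 was 0.0457 with day 0 replicate 4 left out, 0.031 with the replicate block and 0.00621 with DESeq2. With only days 0 and 2 in the fit it was 0.00237. Without the replicate 1 libraries of days 3 and 4 it was 0.00163, in a range of 0.00163 to 0.174. The LEFTY genes are neighbours of near-identical sequence, so reads could be split between them. CER1, LEFTY2, FST and SMAD7, the inhibitory SMAD (log2 fold change 1.43 ± 0.28), rose in every fit without 1 library. PMEPA1 rose from 10.6, 17.4 and 14.8 CPM to 76.8, 87.8 and 77.5, but its adjusted p was 0.0558 to 0.121 over the 6 fits that left out 1 library (range 1.84e-05 to 0.121). BAMBI rose from 23.4, 20.5 and 21.7 CPM to 44.4, 57.2 and 97.4, but its adjusted p was 0.0799 with day 0 replicate 1 left out, 0.0827 with day 0 replicate 2 left out, 0.0592 with day 0 replicate 4 left out and 0.119 with day 2 replicate 4 left out (range 0.00922 to 0.165). SMAD7 was named after its values were seen. The list's fallen count became 1 with day 0 replicate 4 left out and 1 with the replicate block.

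Most genes of the Wnt target list were still above day 0 a day after CHIR99021 was gone, mostly at lower means than on day 1. Of 22 Wnt target genes, 14 rose (10 in every fit without 1 library) and the other 8 did not pass, with a median of 2.19. For 13 of the 14 the day 2 mean was below that of day 1, LGR5 being the exception. LGR5, the R-spondin receptor of stem cells in gut, rose from 0.544, 0.834 and 0.628 CPM to 121, 139 and 81.9 (log2 fold change 7.41 ± 0.47, adjusted p = 1.34e-07), and its day 1 mean was 62.4 ± 19.01. SP5, a zinc finger target of beta-catenin, was at 0.686, 0.596 and 0.951 CPM on day 0 and 7.48, 6.58 and 26.7 on day 2 (log2 fold change 4.18 ± 0.64, adjusted p = 0.000285), after 362 ± 118 on day 1. NKD1, a feedback inhibitor inside the cell, was at 4.45, 4.33 and 6.72 CPM and 65.9, 69.0 and 103 (log2 fold change 3.94 ± 0.41, adjusted p = 9.54e-06), after 559 ± 42.2. AXIN2, the classic feedback gene of the pathway, also rose, from 15.5, 36.4 and 28.0 CPM on day 0 to 58.1, 69.5 and 53.9 on day 2 (log2 fold change 1.18 ± 0.36, adjusted p = 0.0292), after 347 ± 111 on day 1. The days did not overlap for AXIN2, but its adjusted p was 0.101 with day 0 replicate 1 left out, 0.0533 with day 2 replicate 1 left out and 0.0852 with day 2 replicate 2 left out, in a range of 0.00338 to 0.103.

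Secreted Wnt proteins and their antagonists moved in both directions. Of 15 Wnt ligand genes, 7 rose and 1 fell, with a median of 2.07. WNT3, the ligand that starts the streak, rose from 0.118, 0.139 and 0.533 CPM to 11.01, 13.1 and 44.6 (log2 fold change 6.42 ± 0.93, adjusted p = 0.000172). WNT4 went from 0.166, 0.0596 and 0.571 to 4.00, 11.3 and 47.6 (log2 fold change 6.29 ± 1.43, adjusted p = 0.00542). Replicate 4 was the highest day 2 library for both. WNT8A had 2 counts in all on day 0 and was at 2.50, 2.79 and 1.64 CPM on day 2. WNT8B was the ligand that fell, at 0.710, 0.238 and 0.190 CPM on day 0 and at 0, 0 and 0.0274 on day 2, with an adjusted p of 0.0256 that became 0.0894 with day 0 replicate 1 left out, 0.103 with day 2 replicate 1 left out and 0.115 with day 2 replicate 2 left out (range 0.0146 to 0.115). Of 25 receptors and antagonists, 10 rose and 5 fell, the latter count being 3 with day 0 replicate 2, day 2 replicate 1 or day 2 replicate 2 left out. DKK1, an antagonist of the LRP coreceptors, rose from 6.18, 5.24 and 2.21 CPM to 172, 86.4 and 32.1 (log2 fold change 4.41 ± 0.80, adjusted p = 0.00109). DKK4 went from 1.21, 1.29 and 1.43 to 59.5, 21.3 and 21.8 (log2 fold change 4.71 ± 0.97, adjusted p = 0.00287). The day 2 libraries of DKK1 were widely spread, with replicate 4 lowest, but none overlapped day 0. NOTUM, which strips the lipid from Wnt proteins, rose (log2 fold change 5.55 ± 0.55), as did the WNT5A receptor gene ROR2 (log2 fold change 4.97 ± 0.61). WIF1, another secreted antagonist, fell from 3.43, 2.80 and 3.23 CPM to 0.0184, 0.0753 and 0.0548 (log2 fold change -5.99 ± 0.84, adjusted p = 0.000132).

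Of 22 BMP pathway genes, 11 rose, 8 in every fit without 1 library, the other 11 did not pass, and the median was 1.63. BMP2 went from 14.03, 16.4 and 8.43 CPM to 594, 724 and 618 (log2 fold change 5.64 ± 0.43, adjusted p = 4.64e-07), with little spread among replicates. The inhibitory SMAD6 went from 0.781, 0.397 and 1.08 CPM to 33.0, 40.1 and 112 (log2 fold change 6.35 ± 0.57, adjusted p = 2.34e-06). BMPER, a secreted modulator of BMP ligands, went from 1.02, 1.13 and 0.400 to 70.2, 79.3 and 90.8 (log2 fold change 6.56 ± 0.79, adjusted p = 3.03e-05). MSX2, a homeobox gene that BMP signals induce, rose too (log2 fold change 5.46 ± 0.64). In the FGF and ERK list the ligand genes FGF17 and FGF8 rose, while the ligand genes FGF2 and FGF19 and the immediate early genes EGR1 and FOS fell, FGF19 being named after its values were seen. FGF17 went from 1.75, 1.29 and 5.75 CPM to 167, 255 and 339.7 (log2 fold change 6.43 ± 0.83, adjusted p = 6.08e-05). FGF8 went from 0.189, 0.0596 and 0.209 to 9.35, 9.76 and 26.5 (log2 fold change 6.63 ± 1.204, adjusted p = 0.00111). EGR1, an immediate early gene of ERK signalling, went from 20.8, 12.4 and 14.4 CPM to 0.276, 0.201 and 0.110 (log2 fold change -6.31 ± 0.81, adjusted p = 5.99e-05). FOS went from 20.99, 11.1 and 8.14 to 1.40, 0.803 and 1.21 (log2 fold change -3.56 ± 0.63, adjusted p = 0.000845). Over the 20 genes of this list 4 rose and 6 fell, with a median of -0.32. EGR1 had a day 1 mean of 20.2 ± 4.02 CPM, within its day 0 range.

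Notch and retinoic acid genes had a few large changes. NRARP, a Notch-induced feedback gene, fell from 25.7, 23.3 and 30.3 CPM to 2.82, 4.04 and 1.92 (log2 fold change -3.18 ± 0.43, adjusted p = 0.000101). LFNG, a glycosyltransferase that modifies Notch, went from 13.2, 10.3 and 29.5 to 0.865, 0.828 and 1.45 (log2 fold change -4.08 ± 0.73, adjusted p = 0.00102). DLL3, a divergent Delta ligand, rose from 4.31, 1.95 and 7.08 CPM to 20.4, 17.1 and 114 (log2 fold change 3.50 ± 0.80, adjusted p = 0.00591), with replicate 4 far above its fellows. Of 16 Notch genes, 2 rose and 2 fell, shares near the 11.6% and 9.16% over all genes tested. The risen count was 1 with day 0 replicate 1, day 0 replicate 2 or any day 2 library left out. CYP26A1, the enzyme that degrades retinoic acid, rose from 23.5, 12.7 and 22.4 CPM to 811, 698 and 1233 (log2 fold change 5.55 ± 0.66, adjusted p = 2.66e-05). ALDH1A2, which makes retinoic acid, rose at a low level, from 0.402, 0.159 and 0.0761 CPM to 1.93, 2.06 and 1.84 (log2 fold change 3.20 ± 0.59, adjusted p = 0.00129). Of 15 retinoic acid genes, 5 rose (a count of 3 with day 0 replicate 2 or day 2 replicate 4 left out) and 1 fell, DHRS3, with a median of 1.40. The fall of DHRS3 (log2 fold change -3.45 ± 0.86, adjusted p = 0.00951) was lost at adjusted p of 0.0501 with day 2 replicate 1 left out and 0.0529 with day 2 replicate 2 left out (range 7.05e-05 to 0.0529).

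Most epithelial genes fell and most mesenchymal genes rose. Of 23 epithelial genes, 18 fell, 12 of them in every fit without 1 library, with a median log2 fold change of -2.56, and of 21 mesenchymal genes 15 rose, 14 of them in every such fit, with a median of 2.62. CDH1, the E-cadherin gene, went from 229, 382 and 294 CPM to 19.9, 18.3 and 55.3 (log2 fold change -3.27 ± 0.84, adjusted p = 0.0116). CDH2, the N-cadherin gene, went from 105, 94.95 and 85.3 to 1452, 1292 and 1060.3 (log2 fold change 3.74 ± 0.24, adjusted p = 1.45e-07). Neither cadherin overlapped between days, but the adjusted p of CDH1 was 0.0583 with day 2 replicate 1 left out and 0.0633 with day 2 replicate 2 left out (range 0.000154 to 0.0633). The tight junction gene CLDN7 went from 57.3, 32.7 and 89.3 CPM to 1.57, 1.63 and 10.3 (log2 fold change -3.74 ± 0.89, adjusted p = 0.00742). GRHL2, a master regulator of epithelial junctions, went from 28.9, 42.8 and 37.9 to 1.33, 1.03 and 3.37 (log2 fold change -4.26 ± 0.68, adjusted p = 0.000394). EPCAM, an epithelial adhesion gene that stem cells express, went from 933, 494 and 264 CPM to 58.4, 60.4 and 39.9 (log2 fold change -3.41 ± 0.47, adjusted p = 0.000111). CDH1, CDH2 and EPCAM were named from the lists after their values were seen.

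On the mesenchymal side, repressors of CDH1 were among the genes that rose. ZEB1 went from 3.29, 2.42 and 1.104 CPM to 43.9, 43.4 and 24.5 (log2 fold change 4.04 ± 0.44, adjusted p = 1.44e-05). ZEB2 went from 2.34, 1.65 and 0.685 to 31.2, 36.4 and 37.2 (log2 fold change 4.49 ± 0.52, adjusted p = 2.09e-05). VIM, the filament gene vimentin, rose from 120.0, 55.6 and 85.8 CPM to 1699.8, 1227 and 1415 (log2 fold change 4.05 ± 0.37, adjusted p = 2.44e-06). COL5A2, a fibrillar collagen chain, rose from 41.2, 36.7 and 41.4 CPM to 2035, 3086 and 1977 (log2 fold change 5.89 ± 0.42, adjusted p = 2.88e-07). Its partner COL5A1 went from 7.57, 11.6 and 21.9 to 315, 413 and 707 (log2 fold change 5.13 ± 0.49, adjusted p = 3.77e-06). Not every member moved with its list: the keratin gene KRT19 was the epithelial gene that rose, from 93.5, 71.2 and 129.9 CPM to 133, 207 and 309.6 (log2 fold change 1.14 ± 0.36, adjusted p = 0.0361). Its adjusted p was 0.1002 with day 0 replicate 1 left out, 0.12 with day 0 replicate 2 left out, 0.0698 with day 2 replicate 2 left out and 0.161 with day 2 replicate 4 left out (range 0.0164 to 0.161), and it was named after its values were seen. The synthases of hyaluronan, a matrix polymer, went opposite ways. HAS2 went from 18.6, 19.8 and 12.7 CPM to 803, 887 and 615 (log2 fold change 5.50 ± 0.36, adjusted p = 1.45e-07). HAS3 went from 141, 212 and 154 to 3.87, 2.48 and 1.75 (log2 fold change -5.96 ± 0.43, adjusted p = 2.88e-07). Of 21 basement membrane genes 5 rose, with a median of 0.33, and the count was 2 with day 0 replicate 1, day 2 replicate 1 or day 2 replicate 2 left out. The fallen count was 1 with the replicate block and 2 with DESeq2 or with only days 0 and 2 in the fit. FREM1, an extracellular matrix gene of the embryo, rose from 1.73, 4.45 and 3.46 CPM to 223, 183 and 58.0 (log2 fold change 5.59 ± 0.91, adjusted p = 0.000448).

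**Figure D2:**
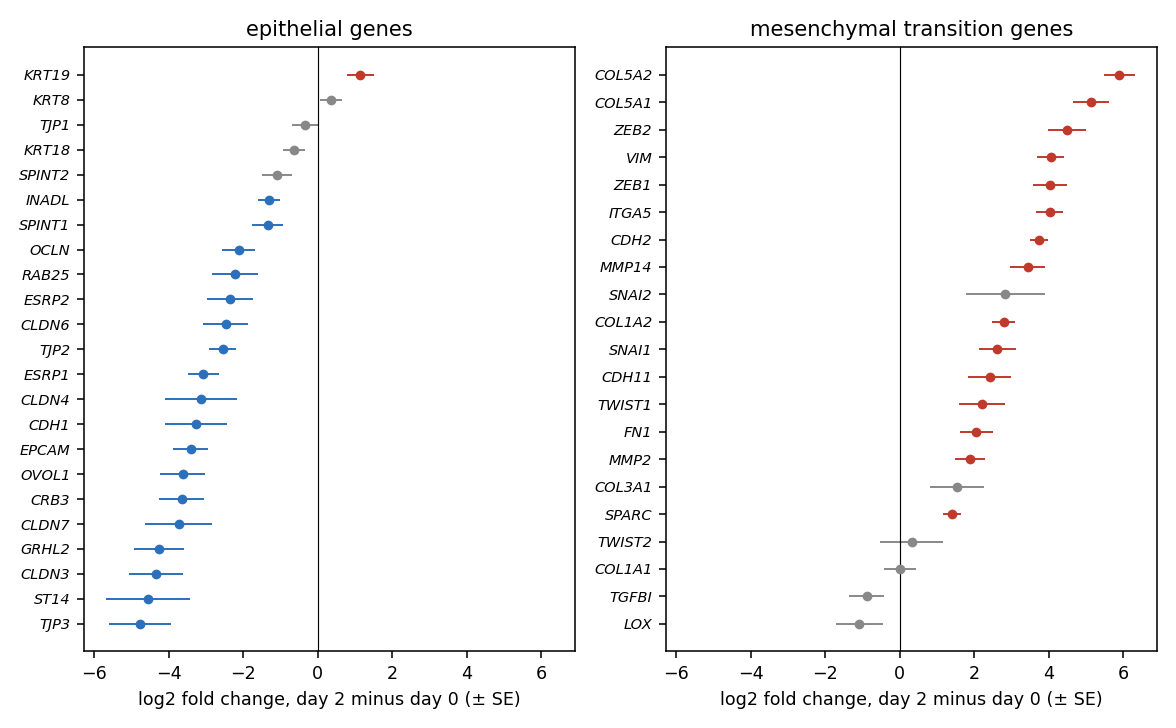
Log2 fold change, day 2 minus day 0, of each tested gene of the epithelial list (left) and of the mesenchymal transition list (right), with bars of 1 SE either way. Red genes rose, blue genes fell and grey genes were not called; 18 of 23 epithelial genes are blue and 15 of 21 mesenchymal genes are red.

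Of 29 surface receptor and guidance genes tested, 16 rose, 15 in every fit without 1 library, and 2 fell, with a median of 2.20. APLNR, the apelin receptor gene of streak and mesendoderm, rose from 4.43, 3.50 and 3.25 CPM to 337, 394 and 887 (log2 fold change 7.18 ± 0.69, adjusted p = 4.09e-06). Semaphorin receptor gene PLXNA2 rose from 2.53, 4.11 and 6.39 CPM to 249.9, 357 and 657 (log2 fold change 6.597 ± 0.62, adjusted p = 3.45e-06). The netrin gene NTN1 went from 1.61, 2.38 and 5.10 to 132, 109.8 and 227 (log2 fold change 5.69 ± 0.75, adjusted p = 7.78e-05). In all 3 genes replicate 4 was the highest day 2 library. FLRT3, an adhesion gene of the definitive and visceral endoderm, rose from 6.18, 3.42 and 1.503 CPM to 205, 148 and 75.8 (log2 fold change 5.27 ± 0.68, adjusted p = 6.33e-05), with replicate 4 the lowest. The receptor and its ligand went apart: APLN, which encodes apelin, fell from 2.56, 3.46 and 4.76 CPM to 0.239, 0.427 and 0.658 (log2 fold change -3.03 ± 0.68, adjusted p = 0.00481), a gene named after its values were seen.

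Markers of other lineages were measured beside those of endoderm. Lists share members, so their counts are not independent. MESP1 and HAND1 are in the streak and mesoderm lists, and HHEX is in the endoderm and blood lists. EOMES, GSC and LHX1 are in both the streak and endoderm lists. Mesoderm genes rose in 10 of 19 tested, 9 in every fit without 1 library, with a median of 3.13, or 3.81 with genes at 0 on a day placed at their bound. HAND1, a bHLH gene of lateral and extraembryonic mesoderm, went from 1.23, 1.07 and 0.666 CPM to 58.2, 96.6 and 215 (log2 fold change 6.96 ± 0.79, adjusted p = 1.95e-05). PDGFRA, a receptor gene of mesoderm and mesendoderm, went from 7.71, 6.61 and 3.81 to 126, 128 and 153 (log2 fold change 4.49 ± 0.63, adjusted p = 0.00014). FOXF1, of splanchnic mesoderm, went from 0.0473, 0.278 and 0.0571 to 2.76, 7.003 and 11.3 (log2 fold change 5.76 ± 0.70, adjusted p = 3.61e-05). The list summed to 156 to 260.1 CPM in the day 0 libraries and 1220.5 to 1515 on day 2. Members of this list differed in day 2 replicate 4. HAND1, MESP1 and FOXF1 were highest there, as was T, which is not in the list. HAS2, also a member, was lowest there, at 803, 887 and 615 CPM, and PDGFRA differed little between libraries. Whether that library held more mesoderm cells was not tested. HOX genes, which pattern the trunk, rose in 10 of 15 tested, 8 of the 10 from the HOXB cluster, with a median of 5.94, or 6.10 with bounds. Their levels were low: the list summed to 0.342 to 0.450 CPM on day 0 and 25.7 to 36.2 on day 2. With so little on day 0, members passed the filter on low counts mostly through days on which they were higher. The share of HOX genes that rose and their median were therefore partly set by that filter. HOXB3 went from 0.166, 0.0397 and 0.0761 CPM to 10.2, 14.7 and 8.63 (log2 fold change 6.90 ± 0.58, adjusted p = 1.51e-06). HOXB6, with no count on day 0, was at 3.28, 4.37 and 8.03 CPM on day 2, 167-fold above a floor of 3 counts per library. That floor treats each count as a separate read, so this bound is too high if both mates of a pair were counted. Genes of the HOXB cluster overlap, so reads may be shared among them.

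Markers of further lineages moved both ways. Of 15 blood and endothelium genes, 6 rose, among them HHEX, also counted with endoderm, and RUNX1, a blood factor (log2 fold change 3.67 ± 0.51). The member that fell was the VEGF receptor gene FLT1, named after its values were seen. Neural and surface ectoderm genes fell in 5 of 17, or 3 with day 0 replicate 1 left out, and the others did not pass, with a median of -1.099. Summed over the list, levels were similar on both days, 597 to 644 CPM in the day 0 libraries and 575 to 628 on day 2. POU3F1, a POU factor of epiblast and neural cells, fell from 43.8, 26.4 and 31.1 CPM to 1.09, 1.58 and 2.06 (log2 fold change -4.42 ± 0.56, adjusted p = 5e-05). HESX1, a homeobox repressor of the anterior brain, went from 30.8, 9.65 and 4.45 to 0.626, 0.602 and 0.712 (log2 fold change -4.53 ± 0.71, adjusted p = 0.000322). SIX6, an eye field gene at 2.08, 0.218 and 0.495 CPM on day 0, had no count on day 2. Its day 0 mean was 26.3-fold above a floor of 3 counts per library, or 10.06-fold with day 0 replicate 1 left out. Both bounds are too high if both mates of a pair were counted. Extraembryonic endoderm genes rose in 7 of 13, PDGFRA, RSPO3, SOX7, COL4A1, SPARC, DAB2 and LAMB1. The risen count was 2 with day 0 replicate 1 or day 2 replicate 1 left out. It was 3 with day 0 replicate 4 left out and 4 with day 2 replicate 2 left out. The calls of RSPO3, SOX7, COL4A1 and LAMB1 were each lost in several fits that left out 1 library. In the same list 2 fell, AFP and PLAT. The call of PLAT was lost without each single library in turn, at adjusted p of 0.0675 to 0.156 (range 0.00822 to 0.156). AFP, the alpha-fetoprotein gene of yolk sac and liver, fell from 7.74, 2.36 and 2.63 CPM to 0.166, 0.151 and 0.0274 (log2 fold change -5.17 ± 0.93, adjusted p = 0.00105). Of 10 trophoblast and amnion genes 4 rose and 3 fell. Of 9 fibroblast genes 1 rose, the proteoglycan gene LUM, and 2 fell, POSTN and THY1, beside 11.6% and 9.16% over all genes tested. The fibroblast median was -0.09, or -0.28 with bounds. THY1 went from 154.9, 102.4 and 354.7 CPM on day 0 to 19.7, 17.9 and 44.3 on day 2. LUM was at 9.78, 16.8 and 1.67 CPM on day 2 against 0.663, 0.119 and 0.419 (log2 fold change 4.56 ± 1.13, adjusted p = 0.00947), lowest in replicate 4.

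Some genes of later endoderm were called. Of 14 gut tube genes tested, 3 rose (5 with the replicate block), beside 11.6% of all genes tested, and 2 fell, with a median of 0.89. HNF4A, a nuclear receptor of liver and gut, rose at a low level, from 0.118, 0.179 and 0.209 CPM to 2.36, 3.61 and 0.740 (log2 fold change 3.71 ± 0.96, adjusted p = 0.0126), with an adjusted p of 0.06 with day 0 replicate 1 left out (range 8.16e-05 to 0.06). Its means were 15.8 ± 20.1 CPM on day 3 and 39.2 ± 19.6 on day 4. SOX9, of pancreatic and biliary progenitors, fell from 22.5, 24.2 and 20.3 CPM to 2.28, 2.71 and 1.53 (log2 fold change -3.36 ± 0.72, adjusted p = 0.00376).

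**Figure D3:**
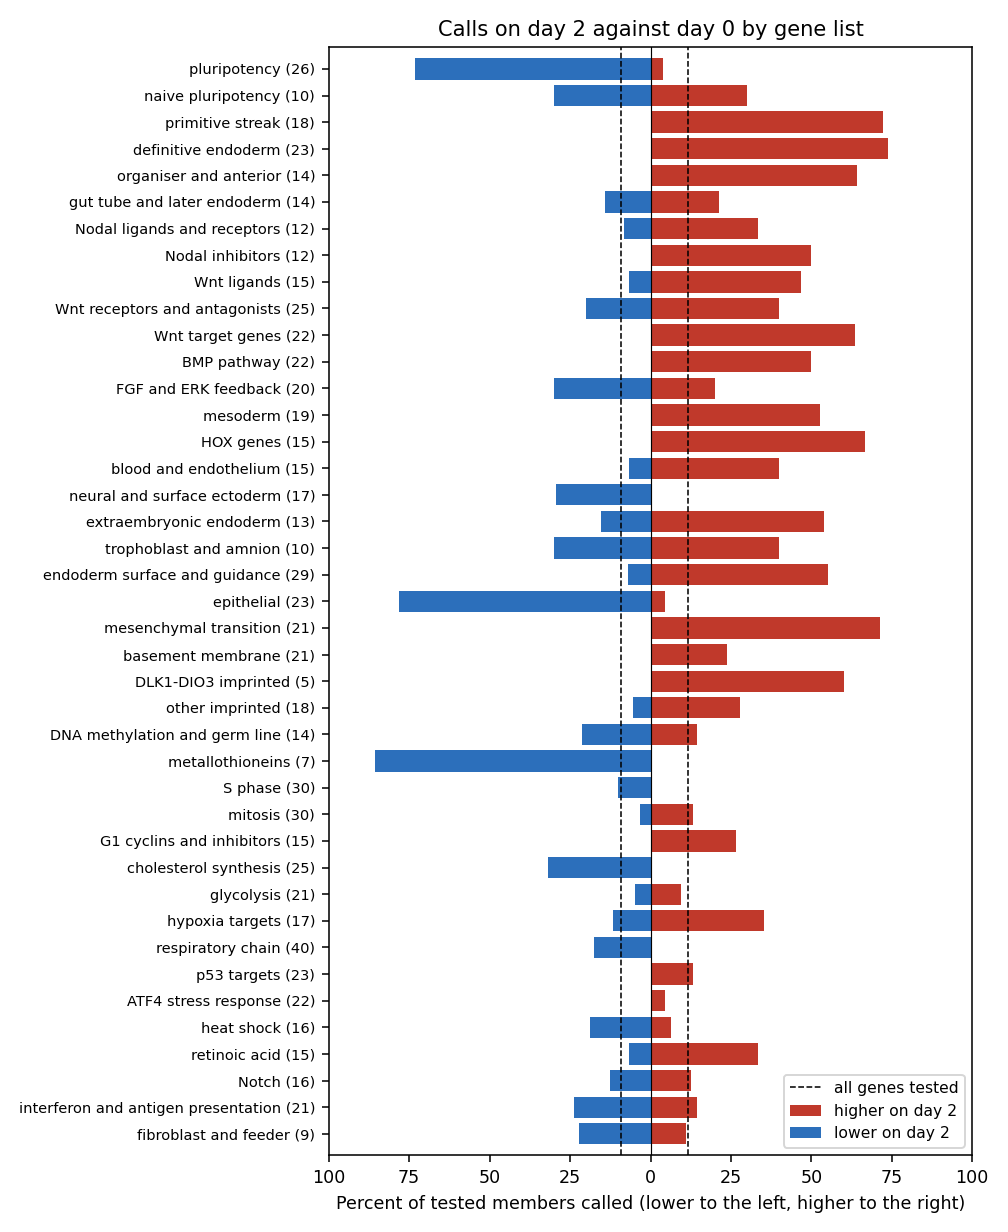
Percent of tested members of each gene list that rose (red, to the right) or fell (blue, to the left) on day 2 against day 0, with the number tested in parentheses. Dashed lines mark the share over all genes tested, 11.6% risen and 9.16% fallen; lists of streak, endoderm, mesenchymal and HOX genes reach far to the right of the line and pluripotency, epithelial and metallothionein genes far to the left.

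Several imprinted genes rose beside RTL1. In the DLK1-DIO3 region, 3 of 5 tested genes rose in every fit without 1 library. DIO3, which encodes the deiodinase that inactivates thyroid hormone, went from 1.06, 0.973 and 4.07 CPM to 86.7, 83.6 and 87.2 (log2 fold change 5.39 ± 0.64, adjusted p = 2.81e-05). Its antisense partner DIO3OS went from 0.0237, 0.0199 and 0 to 0.405, 0.502 and 1.21 (adjusted p = 0.000963). Since the use of strand is not given, reads of this pair cannot be told apart. DLK1 itself was at 1.37, 0.973 and 1.48 CPM and 0.829, 1.03 and 2.69 and did not pass (adjusted p = 0.796), and MEG3, expressed from the maternal copy, had too few counts to be tested. Elsewhere, PEG10, another retrotransposon-derived imprinted gene, rose from 506, 700.3 and 515 CPM to 3434, 3241 and 988 (log2 fold change 2.15 ± 0.53, adjusted p = 0.00945), with replicate 4 the lowest day 2 library but above day 0. SNRPN, of the Prader-Willi region, rose from 3.19, 2.66 and 3.08 to 18.6, 17.9 and 31.5 CPM (log2 fold change 2.93 ± 0.38, adjusted p = 6.08e-05). Its transcript also holds SNURF, so reads may be shared between the pair. Over 18 other imprinted genes 5 rose, and KCNQ1OT1, the member that fell (log2 fold change -1.31 ± 0.44, adjusted p = 0.0466), had an adjusted p of 0.0503 with day 0 replicate 1 left out, 0.191 with day 0 replicate 2 left out, 0.146 with day 2 replicate 1 left out and 0.145 with day 2 replicate 4 left out (range 0.00906 to 0.191). Of 14 DNA methylation and germ line genes, 2 rose and 3 fell, beside 11.6% and 9.16% over all genes tested. Each of these calls held in every fit without 1 library. DNMT3B, the de novo methyltransferase of stem cells, fell from 1388, 1785 and 1948 CPM to 529, 441 and 559 (log2 fold change -1.74 ± 0.28, adjusted p = 0.000394). DNMT3A went from 229, 209 and 209.6 to 98.9, 101 and 101 (log2 fold change -1.101 ± 0.22, adjusted p = 0.00193). TET2, a dioxygenase that oxidises methylcytosine, rose from 5.02, 4.63 and 2.28 to 13.8, 15.9 and 9.65 (log2 fold change 1.72 ± 0.43, adjusted p = 0.01).

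Of metabolic genes, those of cholesterol synthesis fell in 8 of 25, the others not passing, with a median of -0.97. The count was 5 with day 2 replicate 1 or day 2 replicate 4 left out and 4 with day 2 replicate 2 left out, and 14 with the replicate block. FDFT1, which encodes squalene synthase, fell from 1293, 919 and 958 CPM to 431, 395 and 293 (log2 fold change -1.502 ± 0.27, adjusted p = 0.0009). ACAT2, at the head of the pathway, went from 470.2, 255 and 368 to 133, 119 and 94.8 (log2 fold change -1.66 ± 0.30, adjusted p = 0.00122). SLC2A1, the GLUT1 glucose transporter gene, fell from 889.5, 657 and 699.7 CPM to 142, 149 and 164 (log2 fold change -2.31 ± 0.39, adjusted p = 0.000666). SLC16A3, a lactate exporter gene, rose from 0.308, 0.357 and 1.69 to 5.76, 15.1 and 18.7 (log2 fold change 4.06 ± 0.99, adjusted p = 0.00868). The glycolysis list had 2 risen and 1 fallen of 21, beside 11.6% and 9.16% over all genes tested. The risen count was 1 with day 0 replicate 1, day 0 replicate 2 or day 2 replicate 4 left out. Hypoxia targets rose in 6 of 17 and fell in 2. BNIP3, a mitophagy receptor gene, rose (log2 fold change 2.62 ± 0.59), and ADM, which encodes the peptide adrenomedullin, fell from 94.3, 67.8 and 142 CPM to 5.62, 5.17 and 14.3 (log2 fold change -3.60 ± 0.51, adjusted p = 0.000141).

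Counts of metallothionein and respiratory chain genes called as lower varied widely with single libraries. Day 0 replicate 1 was among them, the library with the highest share of ribosomal protein counts, whose part here was not tested. Metallothionein genes, which encode zinc- and copper-binding proteins, fell in 6 of 7 tested, but the count was 1 with day 0 replicate 1 left out, 3 with day 2 replicate 1 left out and 2 with day 2 replicate 2 left out. MT1X, the member called in every such fit, was at 90.9, 13.9 and 26.3 CPM on day 0 and 1.91, 1.81 and 2.79 on day 2 (log2 fold change -4.33 ± 0.90, adjusted p = 0.00287). MT2A was at 31.4, 3.48 and 9.36 CPM and 0.608, 0.577 and 2.19 (log2 fold change -3.71 ± 0.92, adjusted p = 0.00931), with an adjusted p of 0.0689 with day 0 replicate 1 left out and 0.0531 with day 2 replicate 2 left out (range 4.61e-05 to 0.0689). Day 0 replicate 1 was the highest library for both by a wide margin, and these near-identical genes may share reads. Respiratory chain genes fell in 7 of 40, a count that was 1 with day 0 replicate 1, day 2 replicate 1 or day 2 replicate 2 left out, 13 with day 0 replicate 2 left out and 3 with day 2 replicate 4 left out. COX7C, a cytochrome oxidase subunit, was at 668, 84.9 and 145 CPM and 55.9, 52.0 and 74.3 (log2 fold change -2.30 ± 0.53, adjusted p = 0.00625), and again day 0 replicate 1 was far above its fellows.

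Cell cycle genes were called in both directions, at shares to be read against 11.6% risen and 9.16% fallen over all genes. Of 30 S phase genes, 3 fell, a share near that over all genes, and the others did not pass. These were MCM3, MCM5 and GINS3, whose products are parts of the replicative helicase, and their number was at most 1 with day 0 replicate 4 or any day 2 library left out, and 6 with the replicate block. In the mitosis list of 30, 4 rose, among them PRC1, a spindle midzone protein gene (log2 fold change 1.33 ± 0.29), and 1 fell, the checkpoint gene BUB3 (log2 fold change -1.25 ± 0.24). Of 15 G1 cyclins and CDK inhibitors, 4 rose. CDKN2C, an inhibitor of CDK4 and CDK6, rose from 0.0237, 0.0199 and 0.0381 CPM to 2.95, 2.06 and 0.575 (log2 fold change 6.02 ± 0.87, adjusted p = 0.000174). Its day 0 levels lay around the floor of 0.0313 CPM, so the size of this fold change is not well set. Of 23 p53 targets 3 rose, led by the antiproliferative gene BTG2, from 3.17, 4.05 and 2.53 CPM to 46.8, 49.7 and 36.7 (log2 fold change 3.77 ± 0.37, adjusted p = 5.53e-06). With the replicate block 4 p53 targets fell, and 3 fell with day 0 replicate 4 left out and 1 with day 0 replicate 2 left out. Of 22 ATF4 target genes, VLDLR, a lipoprotein receptor gene, rose (log2 fold change 1.56 ± 0.31) and the others did not pass, while 2 fell with day 2 replicate 4 left out. Among 16 heat shock genes BAG3, a cochaperone, rose (log2 fold change 2.61 ± 0.61) and 3 fell, a count of 1 with day 0 replicate 1, day 0 replicate 2, day 2 replicate 2 or day 2 replicate 4 left out. With the replicate block 5 fell. Interferon and antigen presentation genes rose in 3 of 21 and fell in 5, the latter count being 1 with day 2 replicate 1 left out and 2 with day 2 replicate 2 left out.

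The 15 largest increases that held in every fit without 1 library, among genes of at least 5 CPM on the higher day and with a count on both days, included CER1, EOMES, GSC, LHX1 and GATA6. CHL1, an adhesion molecule of the L1 family known from neurons, went from 0.852, 0.933 and 0.571 CPM to 231, 227 and 132 (log2 fold change 7.97 ± 0.46, adjusted p = 5.96e-08). CD48, a surface protein of blood cells, went from 0.260, 0.457 and 0.723 CPM to 117, 117 and 136 (log2 fold change 7.996 ± 0.83, adjusted p = 8.94e-06), with close replicates. TMOD1, which caps actin filaments, went from 0.213, 0.298 and 0.856 CPM to 53.8, 63.8 and 147 (log2 fold change 7.58 ± 0.87, adjusted p = 2.03e-05). OAS1, an interferon-induced antiviral enzyme gene, went from 0.0473, 0.0596 and 0.114 CPM to 7.55, 14.6 and 39.1 (log2 fold change 8.07 ± 1.16, adjusted p = 0.000159), with replicate 4 the highest. HTR1E, a serotonin receptor gene, went from 0.0473, 0 and 0.0571 CPM to 8.05, 15.7 and 9.29 (log2 fold change 8.26 ± 0.83, adjusted p = 6.71e-06). The others were FAM24B, GPR115, ANKRD55, KLHL6 and RFPL2, and the first 3 had 6 counts each in all on day 0.

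Among the 15 largest decreases by the same rule, IDO1, which breaks down tryptophan, went from 55.1, 30.7 and 21.7 CPM to 0.184, 0.151 and 0.164 (log2 fold change -7.73 ± 0.49, adjusted p = 1.34e-07). FOXJ1, the regulator of motile cilia, went from 10.1, 7.59 and 14.3 CPM to 0.0552, 0.0753 and 0.0274 (log2 fold change -7.61 ± 1.17, adjusted p = 0.000297). DAZL, a germ cell RNA-binding protein gene, went from 9.30, 5.998 and 1.503 CPM to 0.0184, 0.1004 and 0.0274 (log2 fold change -6.83 ± 1.01, adjusted p = 0.000212). Every day 2 library lay far below every day 0 library for all 3 genes. ARC, an immediate early gene known from neurons, went from 6.22, 5.70 and 15.4 CPM to 0.0368, 0 and 0.192 (log2 fold change -6.93 ± 1.31, adjusted p = 0.00152). With FOXD3, EGR1 and HAS3 described above, the others were TM4SF18, LOC100506013, SPTSSB, LOC153469, SYNPO2, RASGRP2, GDPD2 and FAM110C, at log2 fold changes from -7.63 to -5.82.

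By counts, not per length, the called genes with the highest means were CER1, PEG10, PKM2, HSP90B1 and LAPTM4B among the risen and HSPA8, SCD, PODXL, LIN28A and CD24 among the fallen. PODXL, whose product carries stem cell surface antigens, fell from 1897, 2595 and 2513 CPM to 759, 709.8 and 317 (log2 fold change -1.97 ± 0.45, adjusted p = 0.00554). CD24, a surface marker of stem cells, fell from 3497, 2359 and 1496 CPM to 615, 457 and 173 (log2 fold change -2.56 ± 0.44, adjusted p = 0.000733). Both were lowest in replicate 4 of day 2. LAPTM4B, a lysosomal membrane protein gene, rose from 1386, 952 and 962 CPM to 2679, 2328 and 2815 (log2 fold change 1.25 ± 0.32, adjusted p = 0.0109). Calls of PKM2, HSP90B1, HSPA8, SCD and LIN28A were lost without some single library. PKM2 had an adjusted p of 0.1005 with day 0 replicate 1 left out, 0.0859 with day 0 replicate 2 left out and 0.0906 with day 2 replicate 4 left out (range 0.00278 to 0.1005). HSP90B1 had 0.0525 with day 0 replicate 1 left out and 0.0682 with day 2 replicate 2 left out (range 0.0038 to 0.132). HSPA8, which has many pseudogenes, had 0.0749 with day 0 replicate 2 left out, 0.0669 with day 2 replicate 2 left out and 0.0796 with day 2 replicate 4 left out (range 0.00603 to 0.117). SCD, a fatty acid desaturase gene, had 0.065 with day 0 replicate 1 left out, 0.0592 with day 0 replicate 2 left out and 0.081 with day 2 replicate 4 left out (range 0.00431 to 0.109). LIN28A, encoding the RNA-binding protein that blocks let-7, had 0.071 with day 2 replicate 2 left out and 0.0601 with day 2 replicate 4 left out (range 0.00261 to 0.103).

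The day 1 means place these changes against the removal of CHIR99021. Of the 2010 risen genes, 298 (14.8%) had a day 1 mean above that of day 2, 701 (34.9%) lay between the days and nearer day 2, 781 (38.9%) lay between and nearer day 0, and 230 (11.4%) lay below day 0, on a log2 scale with 0.1 CPM added. Of the 1594 fallen genes, 226 (14.2%) were below day 2 on day 1, 734 (46.0%) lay between and nearer day 2, 506 (31.7%) between and nearer day 0, and 128 (8.03%) above day 0. These counts place means and were not tested. Wnt feedback genes were among those whose day 1 level lay furthest outside both days: the means of DKK1 were 4.54 ± 2.08, 2987 ± 193 and 96.7 ± 70.3 CPM on days 0, 1 and 2, and those of TCF7, a partner of beta-catenin, were 4.61 ± 1.18, 89.7 ± 8.55 and 14.1 ± 3.46. SEMA6D, a semaphorin gene, did the reverse, at 20.3 ± 7.57, 1.46 ± 0.0776 and 195 ± 11.6 CPM.

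Among fallen genes, SOX2 was lowest on day 1, at 201 ± 97.9, 1.15 ± 0.538 and 5.10 ± 0.750 CPM on days 0, 1 and 2. TCF7L1, a repressor on Wnt targets, was at 123 ± 17.1, 8.34 ± 1.48 and 44.8 ± 6.88, and PODXL at 2335 ± 381, 161 ± 6.78 and 595 ± 242. A further group was picked for a day 1 mean nearest day 0. It held the matrix protein gene SPARC, at 474 ± 33.4, 472 ± 33.0 and 1254 ± 139.9 CPM, and CITED2, a transcriptional coregulator, at 49.0 ± 1.79, 48.7 ± 8.48 and 115 ± 8.79. On the fallen side it held CLDN7 at 59.8 ± 28.3, 58.5 ± 18.1 and 4.49 ± 5.01, USP18, an interferon-pathway protease, at 8.81 ± 2.52, 8.72 ± 3.10 and 1.32 ± 0.216, and PARP12, an ADP-ribosyltransferase, at 7.03 ± 0.355, 6.89 ± 0.257 and 1.496 ± 0.352.

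**Figure D4:**
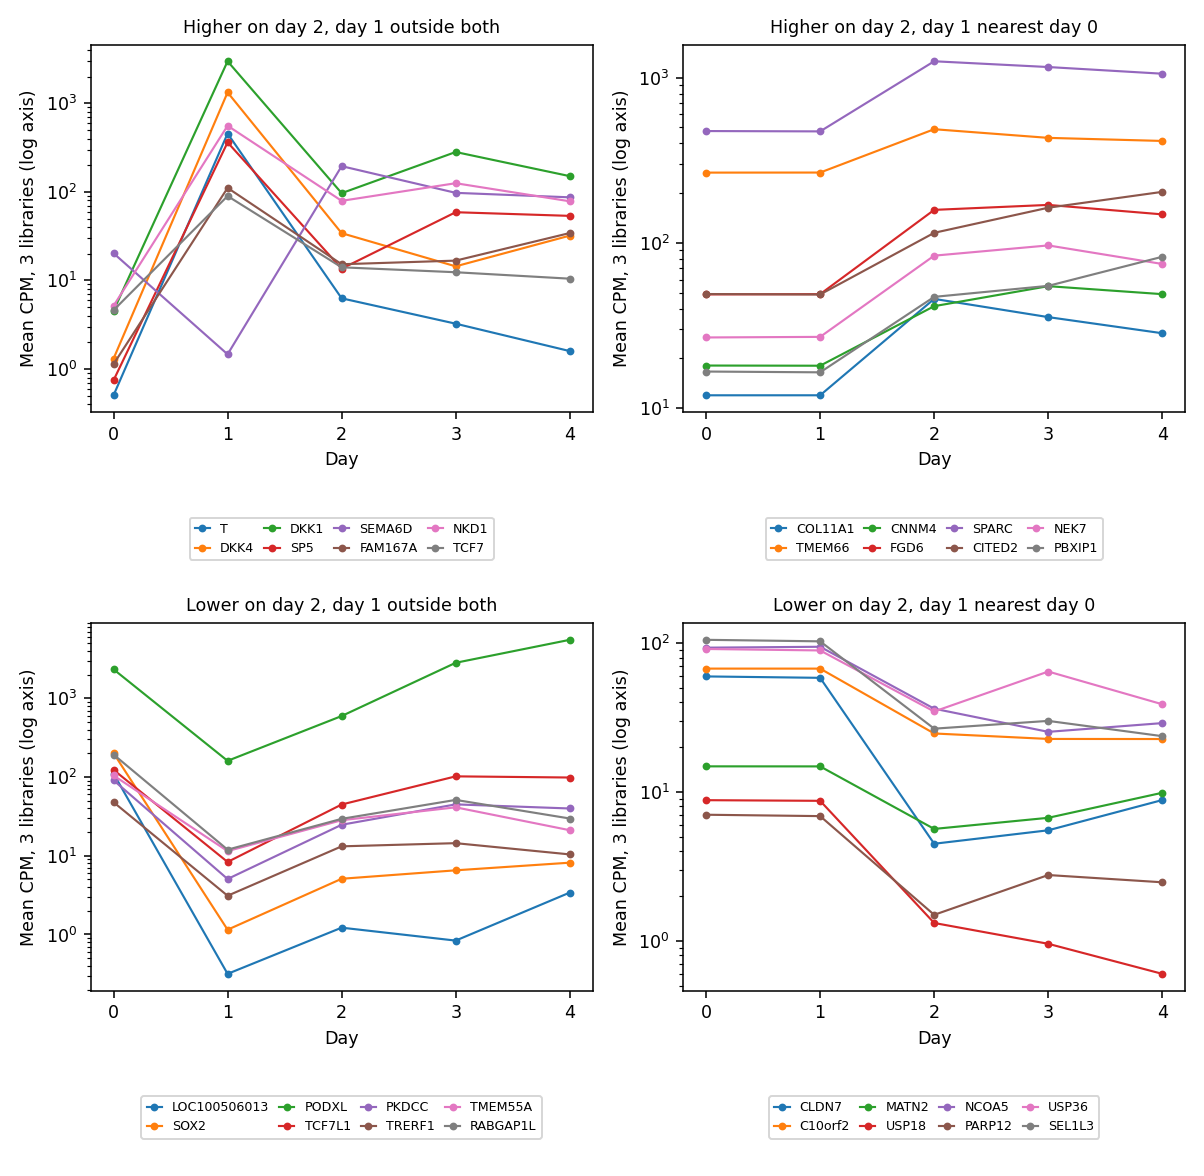
Mean CPM of 3 libraries (log axis) on days 0 to 4 for the 8 genes of each kind picked by their day 1 mean. In the left panels the day 1 mean lies outside the range of days 0 and 2, as for DKK1 and T, which peak on day 1, and SEMA6D and SOX2, which dip; in the right panels the day 1 mean is nearest that of day 0 and the change appears on day 2.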

How the data were processed

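Bulk RNA was polyA-selected and made into directional libraries, per the labels. The authors deposited raw read counts per gene symbol. TopHat2 2.0.14 and hg19 are named in the submitters' processing notes, while for the counting program, the annotation and any use of strand the entry is "not given in the sources used here". Of 23398 entries, 44 identical repeats were dropped and 8 summed, leaving 23346 symbols, and no count was odd, so both mates of a pair may have been counted. Counting error is therefore larger than the counts alone give. Floors of 3 counts allow neither for this nor for the spread between libraries, so folds bounded by them may be too high.

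All 15 libraries were fitted by day with edgeR 4.0.16 in R 4.3.3 (filterByExpr, TMM scaling, quasi-likelihood test, Benjamini-Hochberg adjustment), with a biological coefficient of variation of 45.55%. The SE is the absolute log2 fold change over the square root of F. Symbols were read with Python 3.11.15 and pandas 2.3.3, and the fit was tested on simulated data. For day 2 against day 0 over 17029 genes it recovered 44% of 4-fold and 0% of 2-fold changes, with 100 genes changed by each fold. In the data 20.7% of genes were called, and with more changed genes the adjustment of p is less strict. The shares recovered therefore do not carry over to these data, where the smallest change called was 0.64 on the log2 scale. A gene that did not pass may still have changed by 2-fold or 4-fold. The day 2 and day 0 libraries of replicates 1, 2 and 4 deviated together from their day's mean, with correlations of 0.234, 0.348 and 0.568 across genes, so the numbers were taken to pair the samples. This rests on the data and on no label. Day 2 replicate 1 correlated more with day 0 replicate 2, at 0.264, than with day 0 replicate 1, at 0.234. The correlations therefore do not settle how replicates 1 and 2 pair. The pairing was an alternative and not the main design. Other alternatives were DESeq2 1.42.0, scalings, filters, a 1.5-fold minimum, halved counts, other samples in the fit and each library left out. Leaving out both replicate 4 libraries was chosen after seeing the data. Where a gene's adjusted p without a single library is printed, the range over all alternatives is given. Some genes named without a range also lost their call in an alternative, among them TFCP2L1, KLF4, RSPO3, SOX7, COL4A1, LAMB1, MCM3, MCM5, GINS3 and LAPTM4B.

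The members and gene lists were chosen with earlier results of these data known. Named genes were the 15 largest changes each way called in every fit without 1 library with at least 5 CPM on the higher day (genes with no count on a day get a bound and are not ranked), a set of 21 endoderm, streak and pluripotency genes, up to 5 called genes of the largest change per list, the 5 called genes of highest level each way, and the 8 each way whose day 1 mean lay furthest outside or nearest day 0. CDH1, CDH2, EPCAM, SMAD7, KRT19, APLN, FLT1, NR5A2 and FGF19 were added after their values were seen. Some named genes are not reported here. Promoter sequences are from RefSeq, build GRCh38.p14.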

Additional observations from a re-analysis of the deposited data

How the results depend on the processing

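The count of risen genes stayed within 1.5 times 2010 under every alternative run, from 1401 against a 1.5-fold minimum to 2622 with the replicate block, and the count of fallen genes did so under all but a few. Fallen genes numbered 983 against the 1.5-fold minimum and 1056 with both replicate 4 libraries left out, an alternative chosen after seeing the data. Leaving out 1 library at a time gave 1485 to 2224 risen and 799 to 1506 fallen genes. Without day 2 replicate 2, where fewest fell, the share of risen among called genes went from 55.8% to 65.7%. Scalings moved that share by under 10 percentage points. No named gene changed direction under any alternative run. With the replicate block, which pairs the libraries by number, 2622 genes rose and 2269 fell, and POU5F1 (adjusted p = 0.00109) and LEFTY1 (0.031) came to be called. The replicate block changed no other call among the 237 genes followed through the alternatives. DESeq2 called 2565 risen and 2248 fallen genes and halved counts 1993 and 1686. Among the 237 genes, 19 to 40 calls were lost without any 1 library and 33 without both replicate 4 libraries, and the cause was not tested. Genes with a few counts on one day, such as INHBA, WNT8A and CDKN2C, have no well-set fold change at this depth. With both replicate 4 libraries left out, fallen members numbered 3 in the cholesterol list, 2 among Wnt receptors and antagonists, 3 in the interferon list, 1 among trophoblast and amnion genes and 1 in the heat shock list, and risen members numbered 2 among Nodal ligands and receptors, 2 in the basement membrane list, 2 in the extraembryonic endoderm list and 3 in the retinoic acid list. With only days 0 and 2 in the fit, fallen members numbered 5 in the cholesterol list, 3 in the interferon list and at most 1 each in the S phase, heat shock and respiratory chain lists, and risen members numbered 3 in the basement membrane list, 2 in the mitosis list and 1 in the Notch list. With DESeq2, 4 p53 targets and 4 surface receptor and guidance genes fell and 2 fibroblast genes rose.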
